A study of Mus musculus with 9 samples.

Results

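Of the 50686 mouse genes in the count table, 50 encode matrix metalloproteases, ADAMTS proteases, ADAMTS-like proteins, or tissue inhibitors of metalloproteases. The members are the protein-coding genes whose symbol is Mmp, Adamts, Adamtsl, or Timp followed by a number and at most 1 letter. The set holds 22 Mmp, 19 Adamts, 5 Adamtsl, and 4 Timp genes. Mmp1a also has such a symbol, but the annotation lists it as a polymorphic pseudogene, and it was left out. It had 10, 3, and 9 counts in the EC libraries and 0 counts in the osteoblast libraries.

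RNA-Seq had been performed on 3 groups with n = 3 libraries in each. The control libraries came from untreated MC3T3-E1 cells, a clonal osteoblast line from the calvaria of newborn mice, and the treated libraries from MC3T3-E1 cells given 10 μM SB216763, which inhibits the kinase GSK3, for 14 days. The EC libraries came from untreated mouse pulmonary endothelial cells (ECs), which the study isolated by FACS. The time in culture of the control osteoblasts, the strain and age of the mice that gave the ECs, and whether the libraries of a group came from separate cultures or animals are not given in the sources used here, so p-values measure the spread between these libraries, which may be technical.

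Matrix metalloproteases (MMPs) are zinc-dependent enzymes that are made as inactive precursors and cleave collagens and other matrix proteins outside the cell. ADAMTS proteases are secreted relatives that cleave proteoglycans, trim procollagens, or act on von Willebrand factor, and ADAMTS-like proteins share their ancillary domains but lack the protease domain. TIMPs bind the active site of these enzymes. TIMP2 has a further role, since it links the precursor of MMP2 to the membrane protease MMP14, which activates it, and TIMP3 stays bound to the matrix and also inhibits the aggrecan-cleaving ADAMTS proteases. In bone, MMP13 and MMP14 are the collagenases that osteoblasts and osteocytes use to remodel type I collagen.

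The libraries held between 30990107 and 68946333 counts, and the floor of detection, set at 3 counts, lay at 0.0435 to 0.0968 CPM, the count scaled to a common library size. Levels are given as TMM-normalized CPM, and genes are compared with each other only as RPKM, which is CPM per kilobase of annotated exons. A call needed a log2 fold change (log2FC) of 2 or more in either direction and an FDR under 0.01, and changes that passed the FDR without the fold threshold are given as such. The libraries went with their labels in the defining markers. The 6 endothelial markers (Cdh5, Pecam1, Kdr, Tek, Tie1, Emcn) summed to between 6079 and 6230 CPM in ECs and between 2.06 and 2.78 CPM in the osteoblast libraries, treated ones included. The 6 osteoblast markers (Sp7, Runx2, Alpl, Col1a1, Ibsp, Bglap) summed to 20090 to 28687 CPM in the controls. The same sum was 2826 to 2975 CPM after treatment and 28.9 to 38.3 CPM in ECs. Most of it was Col1a1, with means of 24511 CPM in the controls and 2732 CPM after treatment. Each of the other markers fell as well. Sp7 went from a mean of 297.6 to 25.98 CPM, Ibsp from 151.7 to 11.4 CPM, and Alpl from 34.01 to 0.468 CPM. Runx2 and Bglap fell by smaller factors, from 158 to 116 CPM and from 4.32 to 2.001 CPM. As these are bulk libraries, fewer cells of a type and less RNA per cell cannot be told apart. The expression filter passed 31 of the 50 members.

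Upstream sequences are shown for Mmp13 and Mmp14, the collagenases that rose, and for Adamtsl3, which fell. Each is the 250 bases before the RefSeq start on GRCm38.p6, 5′ to 3′ on the strand of the gene. Capitals mark the AP-1 letters TGANTCA or the RUNX letters TGTGGT, read on both strands. TCF/LEF letters, CTTTGAT or CTTTGAA, were searched as well. Of the called genes, 8 of 9 had an entry in the RefSeq table.
Mmp13 (chr9:7272264-7272513, plus strand): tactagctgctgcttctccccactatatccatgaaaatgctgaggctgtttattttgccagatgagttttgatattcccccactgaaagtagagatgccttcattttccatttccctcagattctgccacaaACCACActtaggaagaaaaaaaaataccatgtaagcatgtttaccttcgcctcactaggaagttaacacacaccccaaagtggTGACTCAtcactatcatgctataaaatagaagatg
Mmp14 (chr14:54431348-54431597, plus strand): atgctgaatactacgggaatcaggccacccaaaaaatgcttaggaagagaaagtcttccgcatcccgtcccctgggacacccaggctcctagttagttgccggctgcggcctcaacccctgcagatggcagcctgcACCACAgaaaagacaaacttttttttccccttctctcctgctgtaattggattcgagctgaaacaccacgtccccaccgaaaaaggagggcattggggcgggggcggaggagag
Adamtsl3 (chr7:82335444-82335693, plus strand): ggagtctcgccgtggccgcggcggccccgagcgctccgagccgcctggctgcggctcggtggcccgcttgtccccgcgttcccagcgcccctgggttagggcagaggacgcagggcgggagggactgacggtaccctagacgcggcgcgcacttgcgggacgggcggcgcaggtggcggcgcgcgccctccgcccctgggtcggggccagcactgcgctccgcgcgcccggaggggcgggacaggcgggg
The window of Mmp13 held 1 AP-1 match, which begins 35 bases before the start, and 1 RUNX match, which begins 118 bases before it. The window of Mmp14 held 1 RUNX match, which begins 114 bases before its start. None of the 3 motifs was found in the window of Adamtsl3, nor in those of Timp3, Mmp15, and Adamts17, which were also called lower, or of Adamts14, which was called higher. Mmp23, called higher, has 2 windows, of which 1 held a RUNX match. The G or C content was 40.4% for Mmp13, 55.2% for Mmp14, and 80.0% for Adamtsl3. The table held 35 of the 50 members, with 38 windows, as some genes have more than 1 start. AP-1 letters were present in 7 of these 38 windows (18.4%), against 6.75% of all 32851 windows in the table. The 7 windows belonged to Mmp13, Mmp12, Mmp1b, Mmp3, Mmp10, Mmp20, and Mmp7, all of which belong to a row of MMP genes on chromosome 9. Mmp27, in the same row, had no AP-1 match. RUNX letters were present in 6 member windows (15.8%) against 14.0% of all windows, and TCF/LEF letters in 2 (5.26%) against 7.48%. A match is a description of the letters and does not show that a factor binds.

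SB216763-treated osteoblasts were compared with the controls to see how the treatment altered the balance of matrix proteases and inhibitors. Mmp13 and Mmp14 rose, Timp3, Adamts5, and Adamtsl3 fell, and Timp2 and Mmp2, the most abundant members in the controls, rose by a smaller factor. Past the fold threshold, 4 of the 31 members tested (12.9%) were higher after treatment, where 3.81% of all genes tested were, and 5 (16.1%) were lower, where 5.84% of all genes were. At the FDR alone, 12 members (38.7%) were higher and 12 were lower, against 32.9% and 32% of all genes, which is close to the background. The median log2FC was -0.13 over the members and 0.01 over all genes tested. Among the tested MMP genes the median was 0.68, and among the tested ADAMTS and ADAMTS-like genes it was -0.43 and -0.90.

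**Figure D1:**
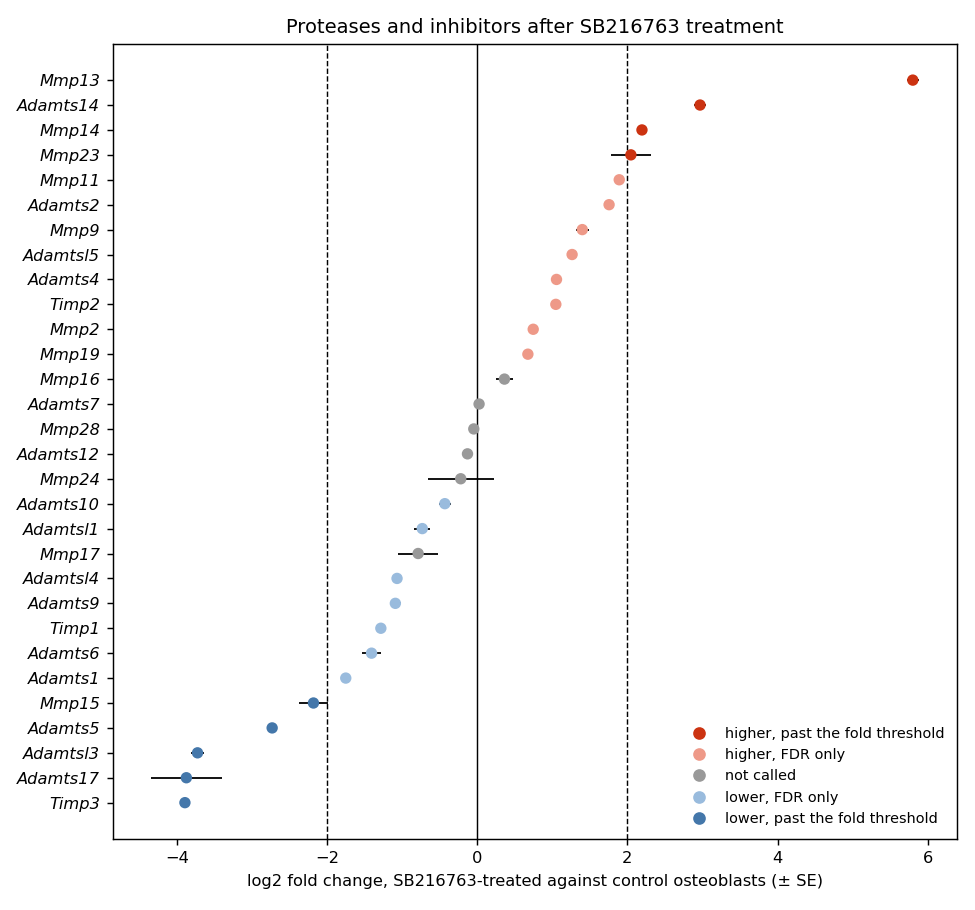
Log2FCs between SB216763-treated and control osteoblasts, with standard errors, for 30 of the 31 members tested. Dashed lines mark the fold threshold. Mmp13 stands at 5.80 and Timp3 at -3.89. Mmp3, which had 2 counts in all 6 osteoblast libraries together, is left out.

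Mmp13, the interstitial collagenase of mouse bone and cartilage (ENSMUSG00000050578.10, chromosome 9, 7272514 to 7283331 in GENCODE M21 on GRCm38), rose more than any other member tested. It was at 10.98, 11.1, and 10.1 CPM in the control libraries, at 610, 613, and 579.6 CPM in the treated libraries, and at 1.31, 2.25, and 1.85 CPM in the EC libraries. The treated libraries were all far above the controls, and the ECs were below both. The log2FC between treated and control osteoblasts was 5.80 (SE 0.08, adjusted p = 1.63e-17 by the quasi-likelihood test of edgeR with Benjamini-Hochberg adjustment), or 55.7-fold. Over all alternative settings it stayed between 5.76 and 6.005. Per length, Mmp13 moved from rank 18 among the 50 members in the controls to rank 4 after treatment, where its share of the summed MMP level went from between 0.664% and 0.731% to between 14.98% and 15.2%.

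Mmp14, which encodes the membrane collagenase MT1-MMP (ENSMUSG00000000957.9, chromosome 14, 54431612 to 54445364), was at 604, 564, and 576 CPM in the controls and at 2680, 2755, and 2548 CPM after treatment. In ECs it was at 42.9, 42.4, and 43.3 CPM. No library of one group overlapped those of another. Its log2FC with treatment was 2.19 (SE 0.05, adjusted p = 4.10e-15 from the same edgeR test). Mmp2, the gelatinase that MMP14 activates, was at 1533, 1436, and 1457 CPM in the controls and at 2504, 2531, and 2388 CPM after treatment. This was a rise by a log2FC of 0.75 (SE 0.06, adjusted p = 1.03e-08), which did not reach the fold threshold. ECs had 8.11, 9.65, and 8.50 CPM of Mmp2. Mmp9, the other gelatinase, is also known from osteoclasts and neutrophils. It went from 3.94 ± 0.263 to 10.3 ± 0.535 CPM (SD, n = 3) and was at 0.258 ± 0.0381 CPM in ECs, with a log2FC of 1.40 between treated and control osteoblasts (adjusted p = 4.52e-10). Of 4 neutrophil markers (S100a8, S100a9, Ly6g, Camp), 0 had more than 3 counts in every library of either osteoblast group, and their summed level was at most 0.245 CPM in those libraries. Of 6 leukocyte markers (Ptprc, Cd68, Adgre1, Csf1r, Itgam, Cd52), 2 were tested. Cd68 went from a mean of 0.532 to 1.63 CPM with treatment and Csf1r from 0.652 to 0.229 CPM. The part of other cell types in the Mmp9 values was not tested.

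Mmp11, a stromelysin that is activated inside the cell by furin-type enzymes, was at 37.7, 42.7, and 39.6 CPM in the controls and at 148, 155, and 142 CPM after treatment. In ECs it was at 40.1, 39.4, and 42.1 CPM, within the range of the control libraries. The log2FC with treatment was 1.89 (SE 0.05, adjusted p = 3.20e-14), just short of the fold threshold, and it was 2.10 when libraries were scaled by their totals alone. Mmp23, a small and divergent MMP, was at 0.299, 0.328, and 0.139 CPM in the controls and at 1.15, 1.07, and 1.23 CPM after treatment. Its log2FC was 2.05 (SE 0.27, adjusted p = 3.81e-06), which is just past the threshold. This call was lost without control replicate 3 (1.85), without SB216763 replicate 3 (1.995), and with a prior count of 1 (1.97). It was also lost when the change was tested against a log2FC of 2. Mmp19 rose from 32.5 ± 2.18 to 52.2 ± 1.01 CPM (log2FC 0.68, adjusted p = 4.35e-08). Its exons overlap those of 2 antisense genes over 28.3% of their length. Of these, Tmem198b went from a mean of 7.64 to 12.96 CPM and Gm47093 from 0.0530 to 0.0272 CPM. Their part in the Mmp19 values was not tested.

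Mmp15, another membrane-type MMP, went the opposite way to Mmp14. It was at 1.98, 1.57, and 1.77 CPM in the controls, at 0.401, 0.287, and 0.490 CPM after treatment, and at 28.7, 28.4, and 31.4 CPM in ECs. The treated libraries lay below the controls and the ECs far above both. The log2FC with treatment was -2.18 (SE 0.20, adjusted p = 5.82e-08). It fell short of the threshold without SB216763 replicate 2 (-1.99) and with scaling by library totals (-1.98). The call was also lost when the change was tested against a log2FC of 2. The other membrane-type genes tested did not pass the FDR. Mmp16 had means of 3.76 and 4.78 CPM in control and treated osteoblasts (adjusted p = 0.0101), Mmp17 of 0.881 and 0.516 CPM (adjusted p = 0.0144), and Mmp24 of 0.222 and 0.180 CPM (adjusted p = 0.673). Mmp28, also called epilysin, had means of 53.9 and 52.3 CPM (log2FC -0.05, SE 0.05). Its adjusted p was 0.411. With scaling by library totals the sign turned and the value passed the FDR, at 0.16 with an adjusted p of 0.00607.

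**Figure D2:**
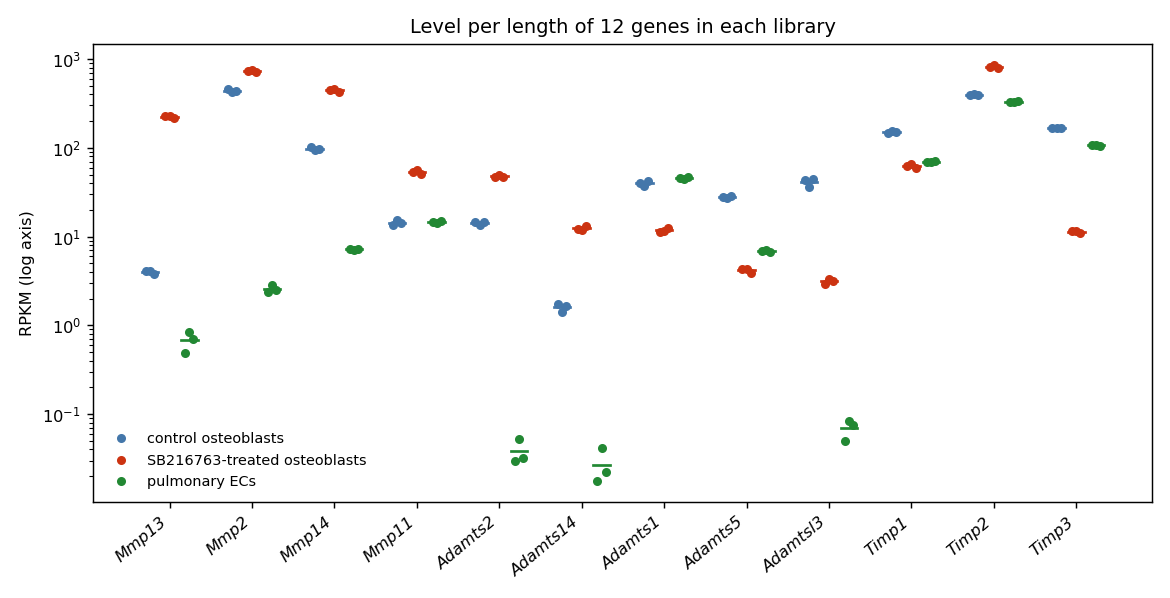
RPKM on a log axis for 12 members in each of the 9 libraries. Points are libraries and short lines are group means. Mmp13, Mmp14, Adamts2, and Adamts14 are highest in the treated osteoblasts, and Timp3 and Adamts5 are lowest there.

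Among the ADAMTS genes, both tested procollagen proteases rose. Adamts2, which removes the amino-terminal propeptide of type I procollagen, had 133 ± 4.97 CPM in the controls and 448 ± 11.9 CPM (SD, n = 3) after treatment, with a log2FC of 1.76 (SE 0.05, adjusted p = 5.16e-14). Adamts14, which has the same activity, was at 8.95, 7.30, and 8.65 CPM in the controls and at 63.8, 61.5, and 69.0 CPM after treatment. The treated libraries were all above the controls, with a log2FC of 2.97 (SE 0.08, adjusted p = 9.31e-15). In ECs, Adamts14 was at 0.0916, 0.213, and 0.116 CPM and Adamts2 at 0.354 ± 0.116 CPM. Adamts3, the remaining gene of this class, had 0 counts in all 9 libraries. Over the same comparison their main substrates fell, Col1a1 with a log2FC of -3.17, Col1a2 of -2.39, and Col3a1 of -3.29.

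Of the 4 tested genes for proteases of aggrecan and versican, 3 fell and Adamts4 rose. Adamts5, the main aggrecanase of mouse cartilage (chromosome 16, 85856173 to 85901828), was at 299, 295, and 310.1 CPM in the controls. After treatment it was at 47.1, 46.9, and 42.2 CPM, below the ECs at 73.7, 76.9, and 72.6 CPM. The log2FC was -2.73 (SE 0.05, adjusted p = 2.88e-16). Adamts1 (chromosome 16, 85793827 to 85803113) lies next to Adamts5 on the same strand, 53.1 kb away, with 0 protein-coding genes between them. It fell as well, from 211, 199, and 223 CPM to 60.2, 60.7, and 67.0 CPM, with a log2FC of -1.75 (SE 0.05, adjusted p = 9.08e-14). In ECs, however, Adamts1 was at 239.7, 239, and 247 CPM, above every osteoblast library. Adamts9 went from 59.5 ± 6.24 to 27.9 ± 1.72 CPM (log2FC -1.09, adjusted p = 1.39e-09). Adamts4 went from 38.7 ± 2.70 to 80.6 ± 2.03 CPM (log2FC 1.06, adjusted p = 2.26e-11). Of the substrates, Vcan fell from 31.8 to 19.3 CPM (log2FC -0.71), and Acan, Bcan, and Ncan were too low to be tested.

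Adamts6 and Adamts10, which act on fibrillin microfibrils, fell by 1.41 and 0.43 on the log2 scale (adjusted p = 3.95e-08 and 1.94e-04). Adamts7 and Adamts12, which cleave cartilage oligomeric matrix protein, did not pass the FDR. Adamts7 had means of 9.52 and 9.63 CPM in control and treated osteoblasts, and Adamts12 of 61.6 and 56.2 CPM. Without control replicate 2, Adamts12 passed the FDR as lower, with a log2FC of -0.23 (adjusted p = 1.77e-04 by the same edgeR test). Adamts17 was called lower, but it had only 1 count in each of the 3 treated libraries, against 0.520, 0.346, and 0.451 CPM in the controls. The ratio of control to treated counts was 16.2, with a 95% exact interval of 5.30 to 80.5 that covers counting error only.

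The ADAMTS-like genes also moved apart. Adamtsl3 (chromosome 7, 82335694 to 82614450), which encodes a secreted glycoprotein of the matrix, was at 339, 283, and 344 CPM in the controls and at 22.4, 25.8, and 24.8 CPM after treatment. In ECs it was at 0.389, 0.640, and 0.579 CPM, so that the treated libraries lay between the other groups without overlap. Its log2FC with treatment was -3.72 (SE 0.08, adjusted p = 1.25e-15), or 13.2-fold lower. Adamtsl4, which binds fibrillin microfibrils, went from 63.0 ± 6.24 to 30.1 ± 0.931 CPM (log2FC -1.07, adjusted p = 1.17e-09). Adamtsl1 went from 7.17 ± 0.829 to 4.31 ± 0.163 CPM (log2FC -0.73, adjusted p = 1.37e-05). Adamtsl5 rose, from 28.5 ± 0.588 to 68.5 ± 3.14 CPM (log2FC 1.26, adjusted p = 6.62e-12).

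The inhibitors changed in opposite directions. Timp3 (ENSMUSG00000020044.13, chromosome 10, 86300372 to 86349506) was at 1370, 1357, and 1377 CPM in the controls, at 94.7, 93.4, and 88.3 CPM after treatment, and at 867, 881, and 849 CPM in ECs. The treated libraries were thus below both other groups, and the log2FC against the controls was -3.89 (SE 0.05, adjusted p = 1.37e-17), or 14.8-fold lower. Over all alternative settings it stayed between -3.92 and -3.69. Timp3 lies within the antisense gene Syn3 and shares 21.3% of its exon length with it, but Syn3 was at most 1.30 CPM in any library. Timp2 (chromosome 11, 118301069 to 118355740) was at 1521, 1582, and 1545 CPM in the controls, at 3187, 3359, and 3062 CPM after treatment, and at 1287, 1280, and 1317 CPM in ECs. It rose with a log2FC of 1.047 (SE 0.05, adjusted p = 4.35e-11), short of the fold threshold. Timp1 (chromosome X, 20870166 to 20874735), an inhibitor that many cell types secrete, fell from 131, 137, and 134 CPM to 55.2, 58.3, and 52.0 CPM, with a log2FC of -1.28 (SE 0.05, adjusted p = 8.95e-13). The ECs, at 61.3, 61.3, and 63.2 CPM, were slightly above the treated osteoblasts. Timp4 was too low to be tested, at 8, 5, and 5 counts in the controls, 10, 4, and 4 after treatment, and 9, 10, and 6 in ECs.

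Per length, the make-up of the inhibitors and of the MMPs changed with these genes. Timp2 made up between 55.3% and 55.8% of the summed TIMP level in the controls, between 91.7% and 91.9% after treatment, and between 64.9% and 65.8% in ECs. Timp3 made up between 22.9% and 23.8% in the controls and between 1.22% and 1.30% after treatment. These shares depend on the length used. The mean ratio of Timp3 to Timp2 was 0.423 in the controls and 0.0138 after treatment. With the longest transcript as length it was 0.694 and 0.0226. The summed MMP level was between 566 and 599.9 RPKM in the controls, between 1435 and 1531 RPKM after treatment, and between 40.3 and 42.2 RPKM in ECs. The ratio of the MMP sum to the TIMP sum was between 0.777 and 0.849 in the controls, between 1.63 and 1.69 after treatment, and between 0.0796 and 0.0822 in ECs, with no overlap between the groups. With the longest transcript as length, the treated mean of this ratio was 2.06 and the EC mean was 0.0856. These ratios count transcripts and not proteins. The summed ADAMTS level differed little, at 109 ± 4.91 RPKM in the controls and 106 ± 1.13 RPKM after treatment with overlapping libraries. With scaling by library totals they did not overlap, at 101 ± 4.51 and 113 ± 1.90 RPKM.

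**Figure D3:**
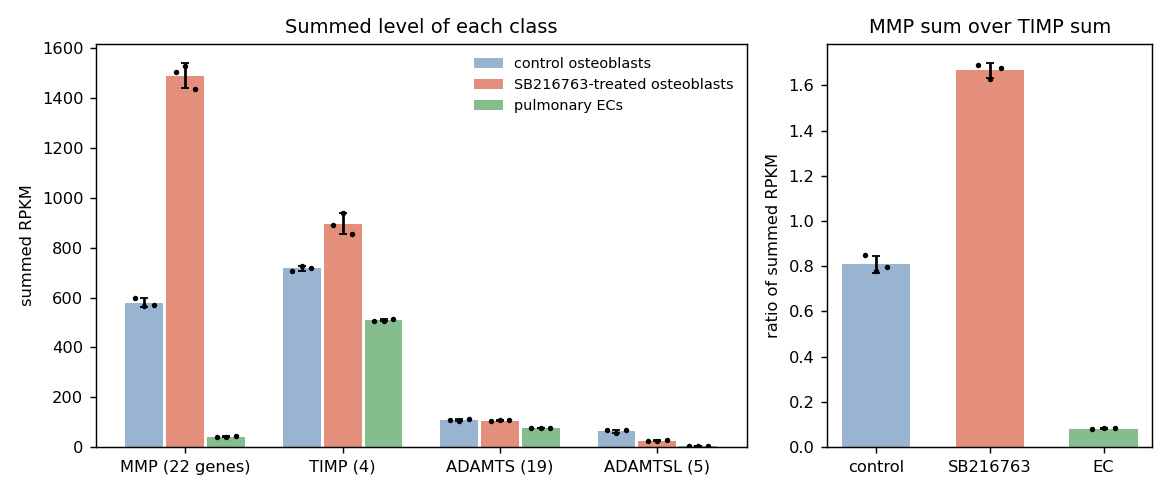
Left, summed RPKM of the 22 MMP, 4 TIMP, 19 ADAMTS, and 5 ADAMTS-like genes in each group. Right, the ratio of the MMP sum to the TIMP sum. Bars are means, error bars are SD, points are the 3 libraries, and the ratio is highest in the treated osteoblasts, at 1.63 to 1.69.

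In each control library the most abundant member per length was Mmp2, at 455, 426, and 432 RPKM, followed by Timp2 at 390.4, 406, and 397 RPKM. After treatment Timp2 came first, at 818, 862, and 786 RPKM, and Mmp2 followed at 743, 751, and 708 RPKM. The ratio of Mmp2 to Timp2 per length went from between 1.049 and 1.16 to between 0.871 and 0.908, without overlap. The ratio of Mmp14 to Timp2 went from between 0.233 and 0.260 to between 0.536 and 0.550 and was between 0.0215 and 0.0218 in ECs. With the longest transcript as length, the means of this ratio were 0.430, 0.952, and 0.0380. The ratio of Mmp2 to Timp2 then had a treated mean of 0.932. By that length Mmp14, and not Mmp2, followed Timp2 after treatment, so this order depends on the length used. ECs were led by the inhibitors, with Timp2 at 332 ± 5.12 RPKM, Timp3 at 106 ± 1.99 RPKM, and Timp1 at 69.8 ± 1.25 RPKM, ahead of Adamts1 at 45.6 ± 0.803 RPKM and Mmp11 at 14.6 ± 0.499 RPKM (SD, n = 3).

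Control osteoblasts and pulmonary ECs were compared to place these changes between both cell types. Of the 31 members tested, 13 (41.9%) passed the threshold as higher in control osteoblasts, where 9.87% of all genes tested were, and 3 (9.68%) were higher in ECs, where 13.5% of all genes were. At the FDR alone 20 (64.5%) were higher in the osteoblasts and 8 (25.8%) in ECs, against 37.9% and 39% of all genes. The median log2FC was 1.12 over the members and -0.01 over all genes. Among the genes higher in the osteoblasts, the differences were largest for Adamtsl3, Adamts2, Mmp2, and Mmp16, with log2FCs of 9.25, 8.58, 7.40, and 6.68 (adjusted p of at most 2.11e-12 by edgeR's quasi-likelihood test). Mmp16 had only 2, 1, and 1 counts in the EC libraries, under the floor of 3. Its log2FC ranged between 6.03 and 6.98 over the alternative settings. Also higher in the osteoblasts were Adamts14, Adamtsl1, Mmp9, Mmp14, Mmp19, Mmp13, Adamtsl4, Mmp28, and Adamts5. With scaling by library totals, Adamts5 moved from 2.02 to 1.89 and Mmp28 from 2.06 to 1.94, both short of the threshold. Both calls were also lost when the change was tested against a log2FC of 2.

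The genes higher in ECs were Mmp3, Mmp15, and Mmp24. Mmp3, stromelysin 1, was at 9.60, 10.3, and 9.96 CPM in ECs, while the control libraries had 1, 1, and 0 counts and the treated libraries had 0. Against the treated osteoblasts Mmp3 was at least 364-fold higher in ECs, taking 3 counts over the group as the floor. Against the controls the ratio of counts was 731, with a 95% exact interval of 202 to 6041. Mmp15 had a log2FC of -4.05 between control osteoblasts and ECs. Mmp24, at 1.03 ± 0.257 CPM in ECs, had one of -2.29, and its call was lost when tested against a log2FC of 2. Its exons overlap those of BC029722 over 13.6% of their length. BC029722 had means of 29.5 CPM in the controls and 33.8 CPM in ECs, and its part in Mmp24 was not tested. Leukocytes are another source of proteases in lung, and of 6 leukocyte markers Cd68 and Csf1r were detected with more than 3 counts in every EC library, at means of 46.6 and 1.41 CPM, whereas Ptprc was at 0.0915 CPM and Cd52 at 0. Their part in the EC values was not tested.

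SB216763-treated osteoblasts and ECs were set against each other to show where the treated cells stood. Past the threshold, 13 members (41.9%) were higher in the treated osteoblasts, where 10.3% of all genes tested were, and 5 (16.1%) were higher in ECs, where 15% of all genes were. At the FDR alone 18 (58.1%) were higher in the osteoblasts and 10 (32.3%) in ECs, against 38.3% and 40.3% of all genes. The comparisons share libraries, so their values are given side by side. Mmp13 had a log2FC of 2.60 for control osteoblasts against ECs and of 8.41 for treated osteoblasts against ECs. For Mmp14 these were 3.76 and 5.95, for Mmp2 7.40 and 8.15, and for Adamts2 8.58 and 10.34. Adamtsl3 had 9.25 and 5.52, and Timp1 had 1.12 and -0.17. For Timp3 they were 0.66 and -3.23, and for Adamts5 2.02 and -0.71, so that both genes were lower in treated osteoblasts than in ECs. Mmp11 had -0.02 and 1.87, and Adamts1 had -0.20 and -1.95. Adamts9 and Adamts10 did not pass the FDR between treated osteoblasts and ECs (log2FCs of 0.06 and 0.18, SE 0.08).

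Position was examined because 9 of the MMP genes form a row on chromosome 9. From Mmp13 to Mmp7 they span 427 kb with Mmp1a and 0 other protein-coding genes between them. Mmp13 lies at one end. The other members of this row are collagenases, stromelysins, and relatives, and they had means of at most 0.178 CPM in the controls and at most 0.181 CPM after treatment. Apart from Mmp13, these 8 genes together had 51 counts in the 6 osteoblast libraries, and 10 when Mmp12 was left out. In ECs the order per length differed, with Mmp3 at 5.53 ± 0.202 RPKM, Mmp13 at 0.675 ± 0.178 RPKM, and Mmp10 at 0.174 ± 0.0587 RPKM. Mmp7 had 0 counts in all 9 libraries, as had Adamts3. A pair of ADAMTS genes on the same chromosome, Adamts15 and Adamts8, lie 20.1 kb apart and had at most 3 counts in any library.

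**Figure D4:**
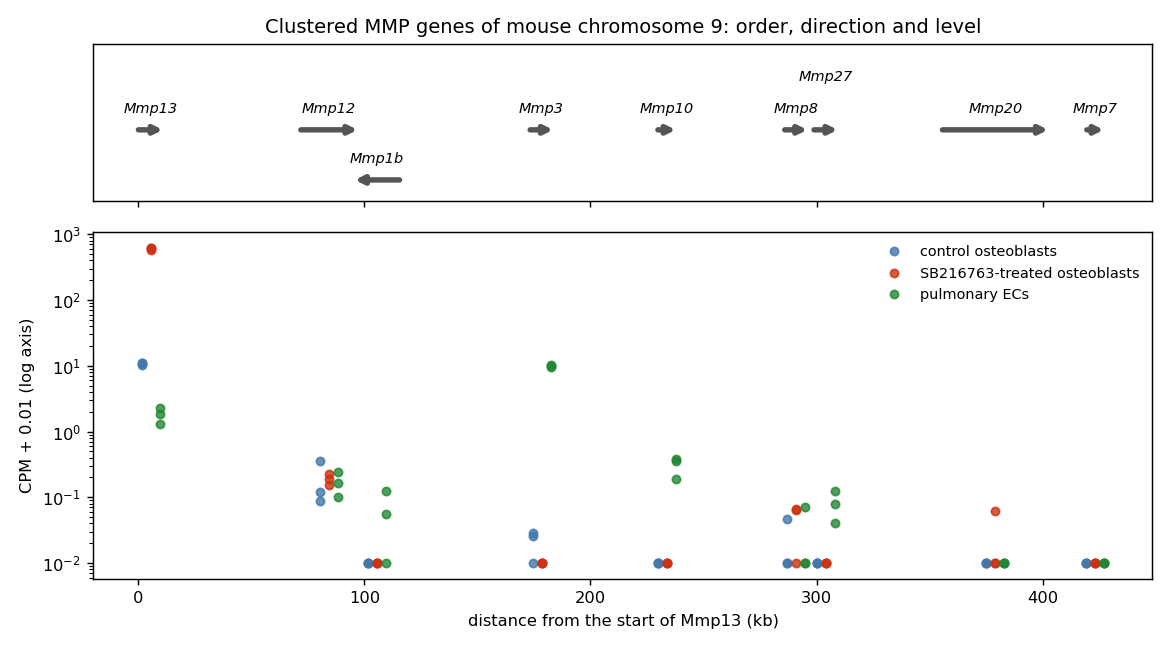
Order and direction of the 9 clustered MMP genes (top) and their CPM plus 0.01 in each library on a log axis (bottom), by distance from the start of Mmp13 in kb. Mmp13 is at 579.6 to 613 CPM in the treated osteoblasts, and of the other 8 genes only Mmp3, in ECs, is above 1 CPM.

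The 19 members that were not tested had at most 17 counts in any library. Adamts18 had 17, 10, and 5 counts in the controls and 0 in the treated libraries, at least 7.97-fold lower after treatment. Adamtsl2 had 12, 6, and 5 counts in the controls, 0, 1, and 1 after treatment, and 9, 6, and 14 in ECs. Mmp10 had 16, 6, and 15 counts in ECs and 0 in the osteoblasts, at least 15.2-fold higher in ECs than in the controls. Mmp12, the macrophage elastase, had between 4 and 10 counts in every library. Mmp27 and Mmp1b had between 0 and 5 counts in each EC library and 0 in the osteoblasts. Adamts13, the von Willebrand factor protease, had at most 4 counts in a library, as had Adamts16. The remaining ones, Adamts3, Adamts8, Adamts15, Adamts19, Adamts20, Mmp7, Mmp8, Mmp20, Mmp21, and Mmp25, had at most 3.

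Other genes of the pathway were taken from 2 lists written by hand. Of 25 genes that activate, bind, inhibit, or clear these proteases, 21 were tested. After SB216763 treatment 2 (9.52%) were higher past the threshold and 5 (23.8%) were lower, against 3.81% and 5.84% of all genes. At the FDR alone 11 (52.4%) were higher and 8 (38.1%) were lower, against 32.9% and 32%. The higher ones were Serpine2, an inhibitor of serine proteases, from 93.9 ± 1.99 to 791 ± 48.4 CPM, and Itgb3, an integrin chain, from 19.2 ± 1.01 to 114 ± 2.81 CPM. The lower ones included Pcsk6, a furin-type convertase, from 56.2 to 0.397 CPM, Plaur, the urokinase receptor, from 34.2 to 7.65 CPM, and Spock2, a testican, from 120 to 19.9 CPM. Thsd4, which encodes a further ADAMTS-like protein, went from 414 to 2.22 CPM, and Papln, another relative, had 8, 2, and 3 counts in the controls and 0 counts after treatment. Lrp1, the endocytic receptor that clears MMP13, ADAMTS5, and TIMP3, rose from 324 ± 119.7 to 1150 ± 247 CPM (log2FC 1.83, adjusted p = 1.13e-06). Reck, a membrane-anchored MMP inhibitor, had means of 58.4 and 58.3 CPM in control and treated osteoblasts (adjusted p = 0.971). Furin, which activates MMP14 and MMP11, rose from 130 to 173 CPM (log2FC 0.41, adjusted p = 3.09e-07). Of 14 substrate genes, 11 were tested, and the 4 (36.4%) that were lower past the threshold, against 5.84% of all genes, were Col1a1, Col1a2, Col3a1, and Fbn2. At the FDR alone 5 substrate genes were lower and 5 were higher (45.5% each), against 32% and 32.9% of all genes. The higher ones were Fbn1 (log2FC 1.54), Col4a1 (1.095), Vwf (1.07), Col4a2 (0.57), and Col2a1 (0.53). Markers of other cell types moved with the treatment too. Of the 4 genes of the smooth muscle and pericyte list, 3 were tested. Past the threshold 2 (66.7%) were lower, against 5.84% of all genes. The summed level of this list went from between 2861 and 3039 CPM to between 138 and 155 CPM, most of it Acta2. The 4 fibroblast genes summed to between 579 and 647 CPM in the controls and between 1094 and 1122 CPM after treatment. At the FDR alone 3 of them (75%) were higher and 1 (25%) was lower, against 32.9% and 32% of all genes. The part of these cell types in the changes of the proteases and inhibitors was not tested.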

How the data were processed

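Per the labels, RNA-Seq reads were aligned with STAR 2.5.3a to GRCm38, and the authors deposited whole-number read counts per Ensembl gene for 9 libraries, 3 in each of 3 groups. The annotation release and the strand setting of the counting are not given in the sources used here, so reads of overlapping antisense genes cannot be told apart. Symbols, biotypes, and exon lengths came from GENCODE M21 (50462 of 50686 IDs found). Counts were TMM-normalized and tested with edgeR 4.0.16 (glmQLFit and glmQLFTest, R 4.3.3) in 1 fit over all 9 libraries, after filterByExpr left 15531 genes. P-values were adjusted over these genes by the Benjamini-Hochberg method, and the fold and FDR thresholds were those of the study. CPM, RPKM, and log2 fold changes (prior count 0.125) were computed from these counts, and standard errors from the F statistics. The named genes are the 50 members and those of the written lists. Members and lists were chosen with earlier results of these data known. Intervals and floors of 3 counts cover counting error only. Results were recomputed with DESeq2 1.42.0, voom in limma 3.58.1, other normalizations, filters, and thresholds, a replicate block, and leaving out each library. No pair of libraries in a group agreed within sampling noise (chi-square per gene of at least 2.85). This value was between 2.85 and 4.57 for pairs of EC libraries and between 3.24 and 27.4 for treated pairs. For control pairs it was between 27.2 and 104. It was not adjusted for library depth. An item withheld for evaluation is not reported here.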

Additional observations from a re-analysis of the deposited data

How the results depend on the processing

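For the tested members, 2044 log2 fold changes under other settings were set beside the main ones. Of these, 1949 kept their direction and their side of the threshold, and 18 changed sign. A further 58 passed the threshold newly and 19 no longer passed it. Settings that altered only a threshold or the fold tested against kept the main log2 fold changes, which could not change sign. Of the 58, 20 came from a fold threshold of 1 and 37 from the FDR alone. Of the 19, 8 came from the test against a log2 fold change of 2. With a fold threshold of 1 on the log2 scale, 10 members were higher and 10 lower after SB216763 treatment, and with the FDR alone 12 and 12. Between control osteoblasts and ECs the FDR alone gave 20 higher and 8 lower, and no filter gave 5 lower. Between treated osteoblasts and ECs, no filter gave 8 lower and the FDR alone 10. Leaving out 1 library at a time gave 3 to 4 higher and 4 to 5 lower after treatment, 13 to 13 and 3 to 4 between control osteoblasts and ECs, and 12 to 13 and 5 to 6 between treated osteoblasts and ECs. The shares of all genes at the main threshold and at the FDR alone are given with each comparison above. None was computed for the other settings, so their counts have no background beside them. Scaling by library totals moved the median of all genes by 0.20 between treated and control osteoblasts. Limits are set by low counts for the 19 untested members, and by the unknown strand setting for the 8 tested members that share exon bases with other genes.

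Of the values that changed sign, only that of Mmp28 passed the FDR (adjusted p = 0.00607). Between treated and control osteoblasts, library totals gave 0.0755 for Adamts12 and 0.159 for Mmp28, Adamts7 gave -0.0027 without control replicate 1 and -0.0346 without SB216763 replicate 2, in a range up to 0.0756 over the left-out libraries, and Mmp24 gave 0.0875 without SB216763 replicate 1, in a range down to -0.625. Between control osteoblasts and ECs, Mmp11 gave 0.0019 with no filter, 0.0297 and 0.0015 without control replicates 1 and 3, and 0.0163 without EC replicate 3, in a range down to -0.0668. Mmp23 gave -0.0436 with limma-voom, -0.0276 with DESeq2, -0.123 with library totals, -0.00070 with upper-quartile normalization, and -0.0806, -0.156, and -0.171 without control replicate 1, control replicate 2, and EC replicate 2. Mmp17 gave 0.0405 between treated osteoblasts and ECs without EC replicate 3, in a range down to -0.464. The cause was not tested.

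Departures of libraries that share a replicate number correlated at between -0.0392 and 0.123. With 3 libraries in each group and no value for other pairings beside them, these cannot decide whether the numbers pair the samples. With the replicate block, 4 members were higher and 5 lower after treatment, and Mmp23 gave -0.00076 between control osteoblasts and ECs.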
